A study of Mus musculus with 6 samples.

Results

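The mRNAs of 10 histone-modifying enzymes were followed in RNA recovered with YTHDF2 from tumour regulatory T (Treg) cells: Kmt2a, Kmt2b, Kmt2c, Kmt2d, Kmt2e, Setd2, Nsd1, Ash1l, Crebbp and Ep300. They were taken by Ensembl identifier and are 10 of the 54446 gene identifiers in each count file. The list was chosen with earlier results of these data known. Wild-type mice carried subcutaneous tumours of B16F10, a mouse melanoma line, and CD45+CD4+ cells positive for a Foxp3-GFP reporter were sorted from them and lysed. The study compared 3 libraries of RNA precipitated with an anti-YTHDF2 antibody (IP) with 3 libraries of the Input, the 10% of the lysate kept before 4 hours on antibody-coated beads and 6 washes. All libraries share the wild-type genotype, the tumour and the sort, and the animals' age is not given in the sources used here. No control precipitation was analysed here, and enrichment below stands for a higher level in the IP than in the Input.

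YTHDF2 is a cytoplasmic reader of N6-methyladenosine (m6A), a methyl mark on internal adenosines of mRNA that is placed by a nuclear writer complex and is concentrated in long internal exons and near stop codons. YTHDF2 brings the marked mRNA to deadenylation and decay factors. The genes followed here encode very large nuclear proteins that write marks on histone tails. Kmt2a, Kmt2b, Kmt2c and Kmt2d (the mixed-lineage leukaemia, or MLL, family) methylate histone H3 at lysine 4 (H3K4), the mark of promoters and enhancers. Kmt2e carries the family's SET and PHD domains and has little or no known methyltransferase activity. Setd2, Nsd1 and Ash1l carry out H3K36 methylation, a mark of transcribed chromatin. Crebbp (CBP) and Ep300 (p300) are the related acetyltransferases that act with many transcription factors at enhancers.

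By the RefSeq annotation of GRCm38.p6, the assembly on which the mm10 build named by the submitters is based, all 10 are protein-coding genes. Kmt2a spans chr9:44803355-44881352, Kmt2b chr7:30568855-30589056, Kmt2c chr5:25271795-25498855, Kmt2d chr15:98831669-98874077 and Kmt2e chr5:23433036-23504235. Setd2 spans chr9:110532500-110618633, Nsd1 chr13:55209782-55318325 and Ash1l chr3:88950414-89079375. Crebbp spans chr16:4081334-4213957 and Ep300 chr15:81586209-81652077. The spans, introns included, run from 20.2 kb for Kmt2b to 227 kb for Kmt2c. Lengths of the mRNAs were not analysed here, so read levels are not compared between genes. The spans of 6 of the 10 genes share bases with another annotated gene, the longest stretch being the 26434 bp of Kmt2a that the long noncoding RNA gene Gm39326 also covers. As the strand setting of the counting is not given in the sources used here, reads from such stretches cannot be assigned with certainty.

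The IP libraries held 6847731 to 8465453 gene-assigned reads and the Input libraries 10029733 to 14704617. IP libraries had reads for 14200 to 19991 gene identifiers and Input libraries for 26250 to 33344, with the fewest in IP replicate 3. Outside all annotated features lay 71.7% ± 0.434 (SD, n = 3) of the reads of an IP file, against 50.4% ± 1.08 (SD, n = 3) for an Input file. Nothing in the labels ties the replicates to separate animals or pools, and the p-values therefore reflect only library-to-library spread, which could be technical. The labelled cell type was not checked against its marker genes, because the files and reference tables used here do not pair other identifiers with symbols. For the same reason a wider list of chromatin genes was not tested.

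The 10 genes as a group took a larger share of the reads in the IP. They held 0.865%, 0.817% and 0.820% of gene-assigned reads in IP replicates 1 to 3 and 0.494%, 0.415% and 0.432% in Input replicates 1 to 3. The means were 0.834% ± 0.0271 (SD, n = 3) for IP libraries and, for Input libraries, 0.447% ± 0.0412 (SD, n = 3), and the groups did not overlap. Against all reads of a file, the IP libraries had a share of 0.207% ± 0.00834 (SD, n = 3) and the Input libraries one of 0.174% ± 0.0213 (SD, n = 3). On that basis the lowest IP library, at 0.198%, lay just above the highest Input library, also at 0.198% after rounding. In libraries of bulk cells a share of reads does not tell the number of cells that carry an mRNA from the amount per cell.

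All 10 genes passed the filter on low counts, and 8 were enriched in the IP: Kmt2a, Kmt2b, Kmt2c, Kmt2d, Nsd1, Ash1l, Crebbp and Ep300. A gene was called at an adjusted p under 0.05 in edgeR's quasi-likelihood test with Benjamini-Hochberg adjustment over the 15615 genes tested. Kmt2e and Setd2 did not pass, and none of the 10 was depleted. The count of 8 depended on single libraries: it was 5, 6 and 8 without IP replicate 1, 2 and 3, and 6, 3 and 3 without Input replicate 1, 2 and 3. Over all genes tested, 4.33% were enriched and 6.11% depleted. The enriched share of all genes moved with the same omissions, to 1.94%, 2.08% and 5.25% without IP replicate 1, 2 and 3 and to 2.03%, 1.4% and 1.09% without Input replicate 1, 2 and 3. Calls were more frequent among genes with many reads. In the upper quartile of mean level in CPM (read counts scaled to library size), where all 10 genes lie, 14.7% of the 3904 genes were enriched and 16.9% depleted. Among the 665 genes with at least the mean CPM of Kmt2b, the lowest of the 10, 32.6% were enriched and 22.3% depleted.

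As a log2 fold change of IP over Input, the median was 0.76 for the 10 genes and -0.12 for all genes tested. It was 0.10 for the upper quartile of mean CPM and 0.31 for the 665 genes with most reads. All 10 genes lay above the median of all genes tested, and all lay above 0, except that 3 fell below 0 when library sizes were taken from all reads (given below). An estimate of at least 2-fold was found for 3 of the 10, Ash1l, Kmt2b and Kmt2a. Of all genes tested, 2.59% were enriched with an estimate of at least 2-fold. The enriched genes of the whole table had a median log2 fold change of 1.08 with quartiles of 0.87 and 1.49, and of the 8 called here only Ash1l lies above that median.

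**Figure D1:**
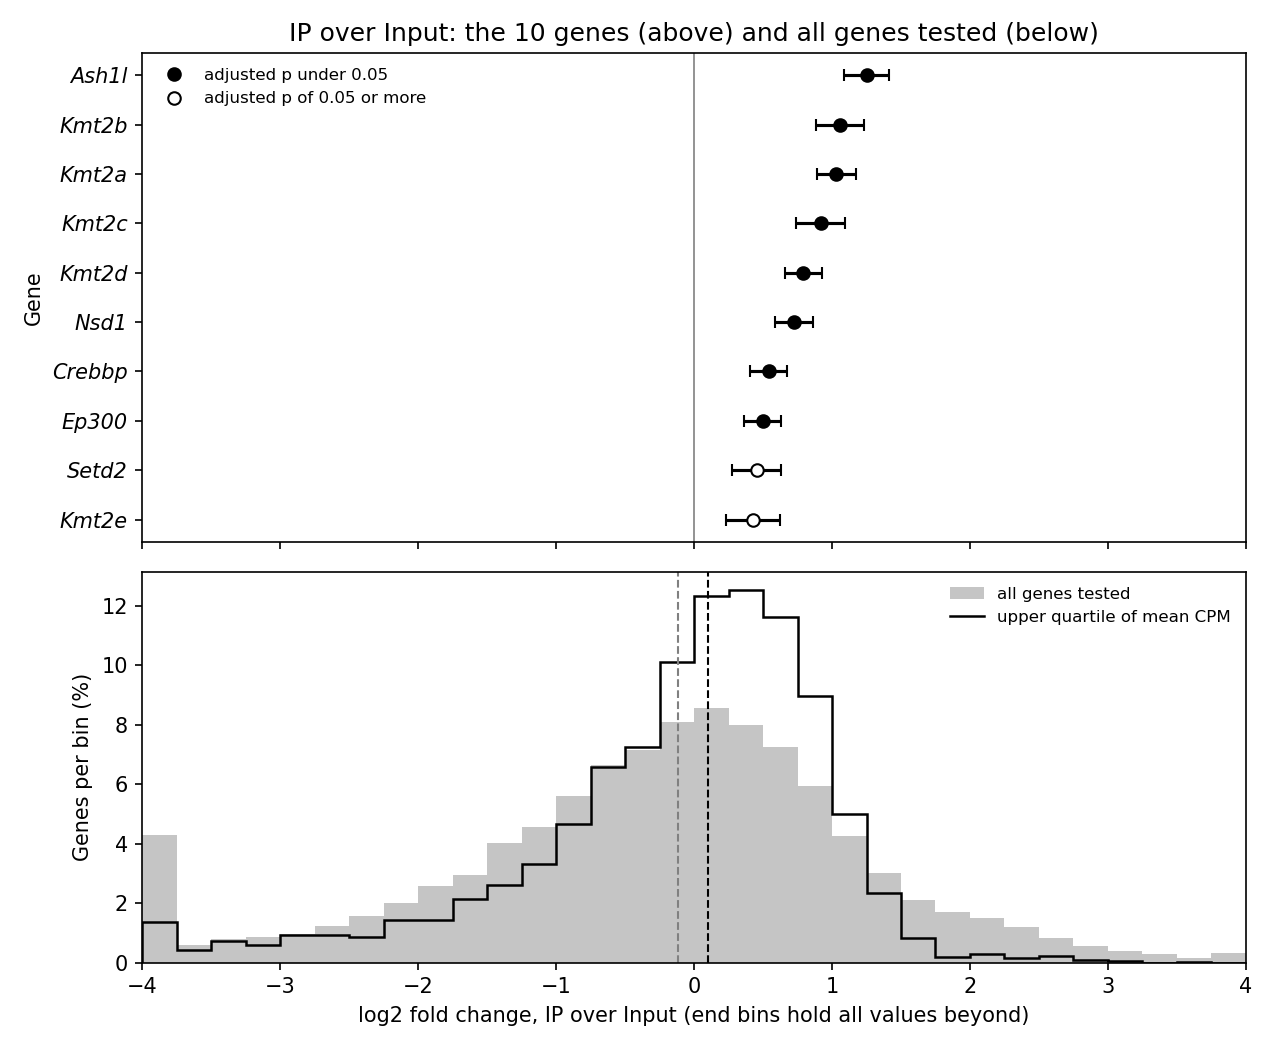
Upper panel: log2 fold change of IP over Input for each of the 10 genes (point) with its standard error (bar), filled where the adjusted p is under 0.05. Lower panel: percentage of genes per bin of log2 fold change for all 15615 genes tested (grey) and for the 3904 in the upper quartile of mean CPM (line), with dashed medians at -0.12 and 0.10. All 10 points lie to the right of both medians, from 0.43 for Kmt2e to 1.25 for Ash1l.

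Among the H3K4 methyltransferases, all 4 were enriched. Kmt2a (ENSMUSG00000002028), which keeps developmental and haematopoietic genes active, had 1663, 1599 and 1310 CPM in IP replicates 1 to 3 and 835, 704 and 700 CPM in Input replicates 1 to 3. CPM values here use library sizes scaled by TMM factors. The lowest IP library lay well above the highest Input library. Enrichment came to a log2 fold change of 1.03 ± 0.14 (SE; 2.04-fold higher, edgeR adjusted p = 0.00185). The call was kept in all 18 alternatives (other size factors, count filters or tests, a replicate block, and the omission of each library), over which the adjusted p ran from 1.75e-09 to 0.0468.

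Kmt2b (ENSMUSG00000006307), the closest relative of Kmt2a, had 431, 334 and 313 CPM in the IP and 182, 158 and 177 CPM in the Input. The groups did not overlap, and IP replicate 1 was the highest library. It was higher by a log2 fold change of 1.06 ± 0.18 (SE; edgeR adjusted p = 0.00517). The call was lost in 2 of 18 alternatives, with library sizes from all reads (adjusted p of 0.0812) and in edgeR's test against a 1.5-fold change (0.0535).

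Kmt2c (ENSMUSG00000038056), which with Kmt2d marks enhancers, had 700, 696 and 845 CPM in the IP and 477, 317 and 392 CPM in the Input. Here IP replicate 3 was the highest library, unlike for Kmt2a and Kmt2b, where it was the lowest of the IP. Enrichment came to a log2 fold change of 0.92 ± 0.18 (SE; edgeR adjusted p = 0.0102).

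Kmt2d (ENSMUSG00000048154) had 1542, 1424 and 1440 CPM in the IP and 978, 769 and 797 CPM in the Input. The 3 IP libraries lay close together, with a coefficient of variation of 4.34%, and above every Input library. It was higher by a log2 fold change of 0.79 ± 0.13 (SE; edgeR adjusted p = 0.00529). For both Kmt2c and Kmt2d the call was lost in 4 of 18 alternatives. Without Input replicate 2 the adjusted p-values were 0.0745 and 0.0523, and without Input replicate 3 they were 0.0767 and 0.0528. The others were library sizes from all reads, with 0.241 and 0.284, and the test against 1.5-fold, with 0.125 and 0.178.

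Kmt2e (ENSMUSG00000029004), the family member without clear methyltransferase activity, was not called. It had 627, 713 and 422 CPM in the IP and 469, 430 and 413 CPM in the Input, so IP replicate 3 lay within the range of the Input while the other IP libraries lay above it. The estimate was a log2 fold change of 0.43 ± 0.19 (SE; edgeR adjusted p = 0.220). Without IP replicate 3 it was 0.58 with an adjusted p of 0.0232, the 1 alternative of 18 in which Kmt2e passed. The missing call does not show that Kmt2e was recovered no more than other mRNAs.

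**Figure D2:**
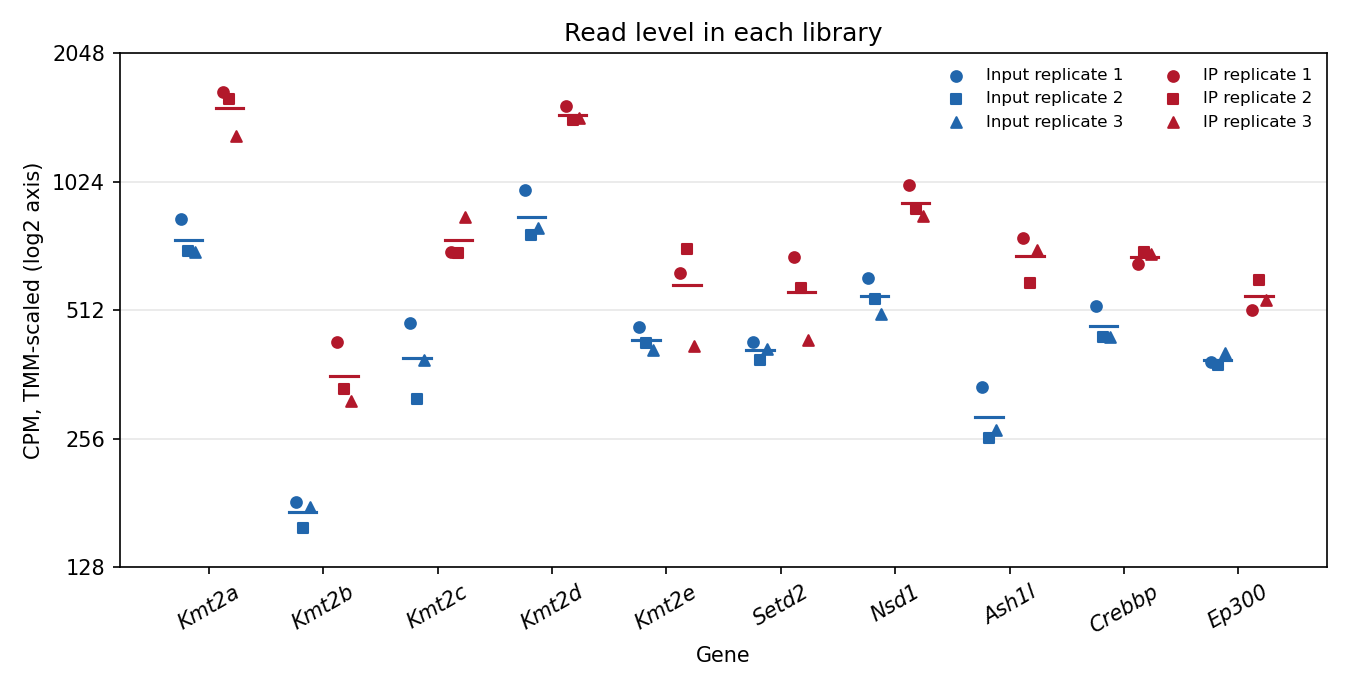
TMM-scaled CPM (log2 axis) of each gene in the 3 Input libraries (blue) and the 3 IP libraries (red), with a symbol for each replicate number and a line at each mean. The IP libraries lie above all Input libraries for 9 of the 10 genes, and only for Kmt2e does IP replicate 3, at 422 CPM, fall within the Input range.

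The H3K36 methyltransferases held both the most enriched of the 10 genes and a gene that was not called. Ash1l (ENSMUSG00000028053) had 756, 593 and 707 CPM in the IP and 338, 257 and 269 CPM in the Input. Every IP library exceeded every Input library by a wide margin. It was higher by a log2 fold change of 1.25 ± 0.17 (SE; 2.38-fold higher, edgeR adjusted p = 0.00154). The call was kept in all 18 alternatives, with adjusted p-values from 2.31e-09 to 0.0232. This log2 fold change exceeds that of 88.0% of all genes tested and of 95.2% of the 665 genes with most reads.

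Nsd1 (ENSMUSG00000021488), which places H3K36 methylation over wide regions, had 1007, 881 and 852 CPM in the IP and 610, 544 and 502 CPM in the Input. The groups did not overlap. Enrichment came to a log2 fold change of 0.73 ± 0.14 (SE; edgeR adjusted p = 0.00929). The call was lost in 5 of 18 alternatives. These were the fits without IP replicate 1 (adjusted p of 0.0539), Input replicate 2 (0.0777) and Input replicate 3 (0.0992), library sizes from all reads (0.438) and the test against 1.5-fold (0.318).

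Setd2 (ENSMUSG00000044791), the enzyme of H3K36 trimethylation behind elongating RNA polymerase, had 682, 576 and 436 CPM in the IP and 431, 391 and 416 CPM in the Input. IP replicate 3 was only just above the highest Input library. The estimate was a log2 fold change of 0.45 ± 0.18 (SE; edgeR adjusted p = 0.147), so it was not called. Setd2 passed in 2 of 18 alternatives, without IP replicate 3 (log2 fold change of 0.58, adjusted p of 0.0280) and with upper quartile factors (0.65, adjusted p of 0.0328).

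The acetyltransferases had the smallest enrichment among the called genes. Crebbp (ENSMUSG00000022521) had 656, 699 and 693 CPM in the IP and 524, 443 and 442 CPM in the Input. The IP libraries varied little, with a coefficient of variation of 3.40%. Enrichment came to a log2 fold change of 0.54 ± 0.13 (SE; 1.45-fold higher, edgeR adjusted p = 0.0317).

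Ep300 (ENSMUSG00000055024) had 513, 604 and 542 CPM in the IP and 388, 381 and 406 CPM in the Input, again without overlap. It was higher by a log2 fold change of 0.50 ± 0.14 (SE; 1.41-fold higher, edgeR adjusted p = 0.0458). Both calls were lost in 10 of 18 alternatives, among them the fit without each of the 6 libraries. Without a library the adjusted p ranged from 0.0514 (IP replicate 3) to 0.277 (Input replicate 2) for Crebbp and from 0.0523 (IP replicate 3) to 0.322 (Input replicate 2) for Ep300. The other losses came with library sizes from all reads (0.975 and 0.932), the test against 1.5-fold (0.788 and 0.860), no filter on low counts (0.0906 and 0.205) and TMM factors from genes of at least 100 CPM (0.114 and 0.149). The log2 fold changes of Crebbp and Ep300 exceed those of 61.8% and 59.5% of the 665 genes with most reads, so their enrichment lies near the middle of that range. Kmt2e and Setd2, which were not called, lie lower still, above 55.5% and 57.3% of the 665 genes. Kmt2a, Kmt2b, Kmt2c, Kmt2d and Nsd1 lie above 75.5% to 90.8% of them.

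IP libraries lay above all Input libraries for 9 of the 10 genes. This was so for 12.8% of all genes tested, and the reverse held for 23.7%. Neither share was taken among genes with as many reads as these 10. The coefficient of variation ran from 3.40% to 25.4% in the IP (highest for Kmt2e), with a median of 11.8%, and from 3.19% to 20.2% in the Input, with a median of 9.93%. Over the upper quartile of mean CPM the medians were 24.2% and 11.6%. If reads were independent molecules, counting error would give at most 2.58% for any of these genes in any library, which is a lower limit because the files hold no molecular identifiers. Over the 10 genes the log2 fold change was not ordered by gene span (Pearson's r of -0.0551 with log2 span, Spearman's rho of 0.0545, n = 10). These genes share the same 6 libraries, so the values only describe them.

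Since the direction of a fold change depends on the scaling between libraries, the 10 genes were also compared with each other inside each library, where no scaling enters. Of the reads of the 10 genes, Ash1l took 8.82%, 7.30% and 9.36% in the IP and 6.46%, 5.85% and 5.96% in the Input. Kmt2a took 19.4%, 19.7% and 17.3% in the IP and 16.0%, 16.0% and 15.5% in the Input. Kmt2b took 5.02%, 4.12% and 4.15% in the IP and 3.48%, 3.60% and 3.93% in the Input. For these 3 genes every IP library lay above every Input library.

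The IP libraries lay below the Input for 3 others. Kmt2e took 7.31%, 8.78% and 5.59% in the IP and 8.96%, 9.78% and 9.16% in the Input. Setd2 took 7.96%, 7.09% and 5.77% in the IP and 8.24%, 8.89% and 9.23% in the Input. Crebbp took 7.65%, 8.61% and 9.17% in the IP and 10.0%, 10.1% and 9.80% in the Input. The shares of Kmt2c, Kmt2d, Nsd1 and Ep300 overlapped between the groups. A share within 10 genes falls when another gene's share rises, so a lower share here does not by itself show loss of a gene. Whether recovery was unequal among the 10 was not tested with these shares.

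**Figure D3:**
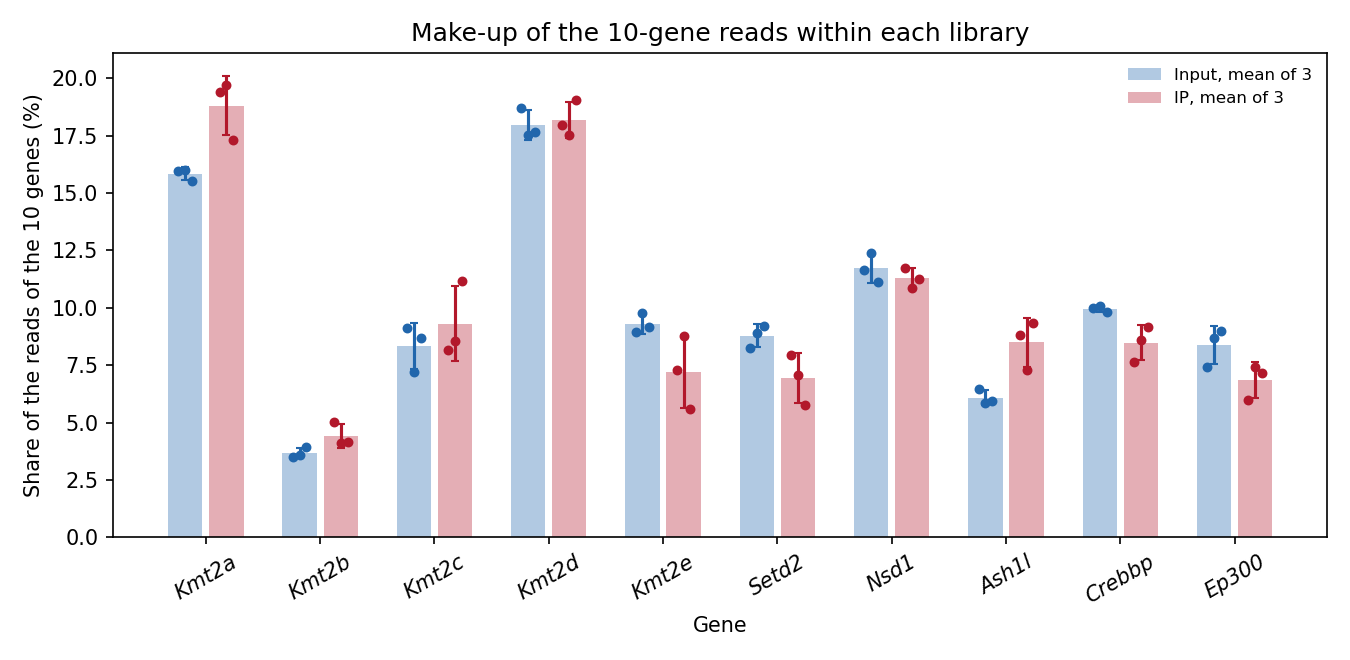
Share of the summed reads of the 10 genes that each gene took within a library (%), as the mean of 3 Input (blue) and 3 IP (red) libraries, with bars for the SD and a point for each library. The IP points of Kmt2a, Kmt2b and Ash1l lie above all their Input points, and those of Kmt2e, Setd2 and Crebbp lie below.

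No difference in recovery between close relatives was resolved with 3 libraries a group. The log2 ratio of Kmt2a to Kmt2b reads was 2.09 ± 0.156 (SD, n = 3) in IP libraries, against 2.11 ± 0.114 (SD, n = 3) in Input libraries. The log2 ratio of Kmt2c to Kmt2d was -0.98 ± 0.190 (SD, n = 3) in IP libraries, against -1.11 ± 0.143 (SD, n = 3) in Input libraries. The log2 ratio of Crebbp to Ep300 was 0.31 ± 0.0823 (SD, n = 3) in IP libraries, against 0.26 ± 0.158 (SD, n = 3) in Input libraries. In each pair the IP and Input libraries overlapped. The differences of IP minus Input were -0.02, 0.13 and 0.05, with exact two-sided permutation p-values of 0.9, 0.5 and 0.7, all 0.9 after adjustment over the 3 pairs. The smallest p that 3 against 3 libraries allow is 0.1, so these tests could not have passed 0.05 and do not show that the pairs are recovered alike. Leaving out single libraries gave differences of -0.10 to 0.05, 0.03 to 0.21 and -0.02 to 0.14 in the same order.

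Among the H3K36 methyltransferases, the ratio between genes differed from IP to Input. The ratio of Ash1l to Setd2 reads was 1.11, 1.03 and 1.62 in the IP and 0.784, 0.659 and 0.646 in the Input. The ratio of Ash1l to Nsd1 reads was 0.751, 0.673 and 0.831 in the IP and 0.554, 0.473 and 0.536 in the Input. In both ratios the IP libraries lay above the Input libraries. Other ratios among the genes followed here were also computed. The IP libraries lay above the Input libraries for Nsd1 to Setd2, for Ash1l, Kmt2a and Kmt2b to Kmt2e, and for Kmt2a to Ep300. The groups overlapped for Kmt2c and Kmt2d to Kmt2e and for Ash1l and Kmt2c to Kmt2a. The ratio of Ash1l to Kmt2a reads was 0.455, 0.371 and 0.540 in the IP and 0.405, 0.366 and 0.384 in the Input. All these ratios were chosen after the fold changes were seen and carry no test.

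The size of the enrichment moved with the scaling. Over the whole table, TMM factors gave 676 enriched and 954 depleted genes, upper quartile factors 1081 and 801, total counts 939 and 875, and library sizes from all reads 160 and 1958. With upper quartile factors 9 of the 10 genes here were enriched, all except Kmt2e, where 6.92% of all genes tested were. When library sizes were taken from all reads of a file, those outside genes included, the median came to 0.23 for the 10 genes and to -0.65 for all genes tested. Ash1l (0.72) and Kmt2a (0.50) were then the only 2 of the 10 that were enriched, where 1.02% of all genes tested were. Kmt2e (-0.11), Setd2 (-0.08) and Ep300 (-0.03) had log2 fold changes below 0 on that scale, so the direction given above for these 3 holds relative to gene-assigned reads. A change of library sizes shifts all genes about equally, so it leaves the distance between the median of the 10 genes and that of all genes tested, 0.88 in the main setting, nearly as it was by construction. That distance was 0.71 when every library had to reach 1 CPM, 0.84 with a mean count of 50, 1.26 with a replicate block, 1.32 with limma voom, 1.62 with DESeq2 and 1.99 without a filter, where the genes tested or their fitted values differ. In these 6 settings and in the 6 fits without a library, all 10 genes lay above the median of all genes tested, and Ash1l had the highest log2 fold change of the 10. Most genes tested have fewer reads than these 10. In the main setting the median of the 665 genes with most reads was 0.31, nearer to that of the 10 genes. Ash1l and Kmt2a were also the 2 of the 10 that passed the test against a 1.5-fold change in the main scaling, where 1.31% of all genes tested were enriched.

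**Figure D4:**
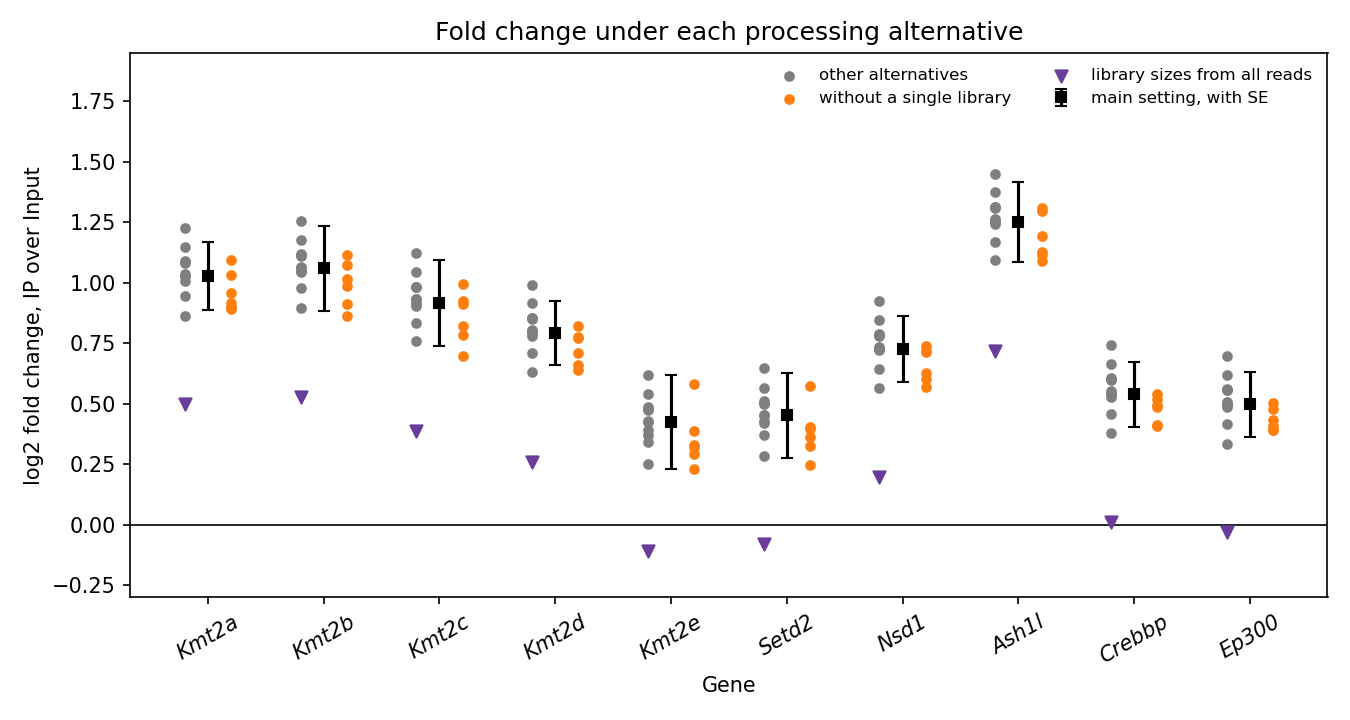
log2 fold change of IP over Input for each gene in the main setting (black square, bar for SE), with a single library left out (orange), with library sizes from all reads (purple triangle) and in the other alternatives (grey). With library sizes from all reads Kmt2e, Setd2 and Ep300 fall below 0, and Ash1l is the highest of the 10 in each setting shown.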

How the data were processed

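The authors deposited raw read counts per Ensembl gene, in a file for each library. Trimmomatic 0.39, HISAT2 2.1.0, HTSeq and DESeq2 with mm10 are named, per the submitters' processing notes; their roles, the annotation release, the strand setting and any removal of duplicates are not given there. The 92 spike-in and 5 summary rows were left aside, and the text gives the share of reads in no feature. Counts were tested with edgeR 4.0.16 (R 4.3.3; filterByExpr, TMM, robust glmQLFit and glmQLFTest, group as the only term, two-sided). Standard errors come from the F statistics. Pair ratios had 0.5 added to each count and were compared by exact permutation.

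Every one of the 10 genes is named, whatever its values. The genes, lists and tests were chosen with earlier results of these data known. The 18 alternatives were other size factors (upper quartile, total counts, DESeq2's, all reads), count filters (none, 1 CPM in all libraries, a mean count of 50), DESeq2 1.42.0, limma 3.58.1 voom, a replicate block, glmTreat against 1.5-fold, each library left out, and TMM factors from genes of at least 100 CPM, the last chosen after seeing the data. Pair ratios were also taken with 1 or no added count. Depth is in the text; no molecular identifiers are in these files, so counting error is a lower limit.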

Additional observations from a re-analysis of the deposited data

Results flagged for a closer look

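Reads that fall in no annotated feature are outside the gene counts, and their share averaged 71.7% in IP files and 50.4% in Input files, with every IP file above every Input file. Their part in the values of the 10 genes was not tested beyond the scaling to all reads given above.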

How the results depend on the processing

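Against 8 enriched genes of the 10, library sizes from all reads and the test against 1.5-fold each left 2, and leaving out a library left 3 to 8. No filter on low counts and TMM factors from genes of at least 100 CPM each left 6, without Crebbp and Ep300. Of all genes tested, 1.82% and 2.88% were enriched in these 2 settings. Upper quartile factors gave 9, where 6.92% of all genes tested were enriched. Leaving out IP replicate 1 left 5, and leaving out Input replicate 2 or 3 left 3. None of the 10 was depleted in any alternative. The median log2 fold change of the 10, 0.76, was 0.96 with upper quartile factors, 0.88 with total counts, 0.23 with all reads, 0.60 with TMM factors from genes of at least 100 CPM and 0.62 to 0.77 without a library. With all reads the log2 fold change of Ep300 reversed to -0.029, and those of Kmt2e and Setd2, not called in the main setting, fell to -0.11 and -0.08. Over all genes, against 676 enriched, 1081 passed with upper quartile factors, 160 with all reads, 1382 with DESeq2, 1030 when every library had to reach 1 CPM, 205 in the test against 1.5-fold, 450 with TMM factors from genes of at least 100 CPM and 188 to 999 without a library. Against 954 depleted, 1958 passed with all reads, 2085 with DESeq2, 1715 with limma voom, 591 in the test against 1.5-fold and 563 to 1661 without a library. Apart from the larger change that glmTreat asks for, the cause was not tested. The highest counts among the fits without a library, 999 and 1661, came without IP replicate 3. The labels do not say that same-numbered libraries share a lysate, so they were not taken as pairs. Over the genes tested, their deviations from the group means correlated at only 0.0999, 0.026 and 0.0242, which does not decide whether they are pairs. A replicate block gave 8 enriched genes of the 10 and a median of 0.76, with 5.33% of all genes tested enriched and a median of -0.50 over them. With the block, the edgeR adjusted p of each of the 10 genes was lower than in the main setting. It was 1.21e-05 for Kmt2a and 0.0285 for Ep300. Pair ratios moved by less than the spread between libraries in all their alternatives, but this was fixed in advance. A replicate block leaves the mean difference of a ratio unchanged, and leaving out 1 of 3 libraries shifts a group mean by less than its SD. The added count matters little at these read counts. These alternatives therefore do not show that the ratios are stable.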
